A study of Drosophila melanogaster with 6 samples.

Results

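Oamb, Octbeta2R, sim, Mmp2, Timp, Nox and Sod3 act in the last maturation of the Drosophila egg chamber and in ovulation, and their RNA was followed in follicle cells that expressed human AKT1 or mutated forms of it. They are 7 of the 17493 genes in the deposited matrix and were taken from it by FlyBase identifier, FBgn0024944, FBgn0038063, FBgn0004666, FBgn0033438, FBgn0025879, FBgn0085428 and FBgn0033631 in that order. All 7 passed the filter on low values in all comparisons. In the Ensembl annotation Oamb, Octbeta2R, Timp and sim lie on chromosome arm 3R, and Mmp2, Nox and Sod3 lie on 2R.

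At ovulation a mature egg chamber sheds the follicle cells at its posterior end, and the oocyte passes into the oviduct. Octopamine, the insect counterpart of noradrenaline, is released by neurons and acts on the receptor Oamb on mature follicle cells, where calcium rises and the protease Mmp2 becomes active. Timp is the tissue inhibitor of such proteases. Nox makes superoxide outside the cell, and the extracellular dismutase Sod3 turns it into the hydrogen peroxide that follicle rupture needs. Sim, a bHLH-PAS transcription factor, and the nuclear receptor Ftz-f1 bring follicle cells to the state in which they can respond. Octbeta2R is a second octopamine receptor, coupled to cyclic AMP and known in ovulation mainly from the oviduct epithelium.

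Follicle cells were prepared from ovaries of 6 groups of flies, all carrying the traffic jam driver (TJ-Gal4), which is active in somatic cells of the ovary. LP had the empty landing pad and no AKT1, and WT expressed human AKT1 from that site. T1, T15 and T5 expressed AKT1 with in-frame duplications of the kind found in juvenile granulosa cell tumors, and W80R-Q79K expressed AKT1 with the double substitution that the study writes as Q79K-W80R. Each group had 3 libraries from separate crosses, with 30 pairs of ovaries behind each, and neither the age of the females nor a sort of the cells is given in the sources used here. Each AKT1 form came from insertion at a single site, and a library holds the follicle cells of all stages together with whatever other cells passed the mesh.

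The deposited values are normalized counts, scaled between libraries and not divided by gene length, so levels are compared between libraries and not between genes. They summed to 23.6 to 34.2 M per library, and since they were scaled, the number of reads behind each library is unknown. Follicle cell markers were present throughout, with summed levels of tj, Fas3 and eya between 17221 and 27309, while the sums of 7 muscle genes ran from 2192 to 12375 and those of 6 midgut enzyme genes from 0 to 3838. The profiles of WT library 1, T1 library 1 and T1 library 3 were nearest to a library of another group, so the main results that use them are also given without them. No pair of libraries was identical, and the highest correlation between 2 libraries was 0.994.

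Between the highest and the lowest group mean the fold was 2.72 for Octbeta2R, 2.54 for Mmp2, 2.23 for Nox, 1.90 for Oamb, 1.68 for sim, 1.60 for Timp and 1.48 for Sod3. Of the 15 pairs of groups, the libraries did not overlap in 7 for Oamb, 6 for Octbeta2R, 6 for Nox, 4 for Sod3, 4 for sim, 3 for Mmp2 and 3 for Timp. Over the 9691 genes tested across all libraries the median was 4 pairs, with quartiles of 2 and 6, and Oamb was the 1 gene of the 7 outside these quartiles.

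**Figure D1:**
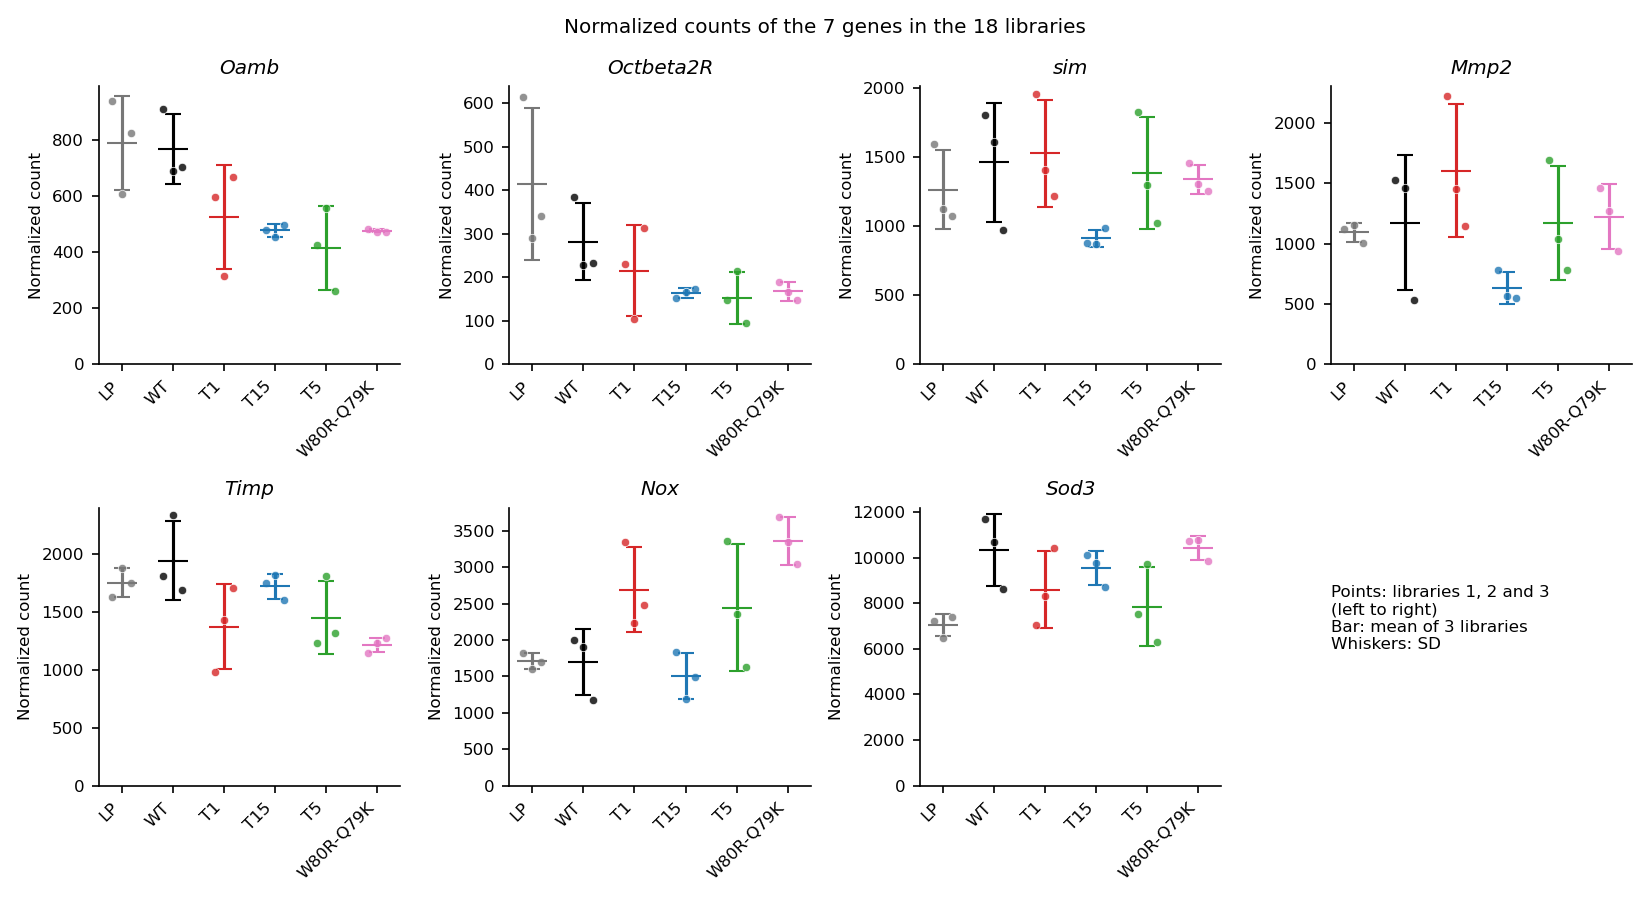
Normalized counts (vertical axes, from 0) of the 7 genes in the 6 groups (horizontal axes). Points are libraries 1, 2 and 3 from left to right, the horizontal bar is the mean of 3 libraries and the whiskers are the SD. Oamb in all 12 mutant libraries lay below the 3 WT libraries, and Nox in the 3 W80R-Q79K libraries lay between 3046 and 3695, above all LP, WT and T15 libraries.

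Oamb, the octopamine receptor of the mature follicle cell, was at similar levels in LP and WT and lower in the mutant libraries. Its normalized count was 939, 608 and 825 in LP libraries 1 to 3 and 912, 690 and 705 in WT libraries 1 to 3. It was 596, 315 and 667 in T1, 479, 455 and 498 in T15, 427, 559 and 261 in T5, and 484, 473 and 474 in W80R-Q79K. The lowest WT library stood above the highest of the 12 mutant libraries, whereas T1 library 3 was also above LP library 2. In bulk RNA of this kind, fewer cells of a type and less RNA per cell cannot be told apart.

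Oamb averaged 769 ± 124 (SD, n = 3) in WT and 474 ± 110 (SD, n = 12) over the mutant libraries. The Log2FC, on the scale of log2(normalized count + 1), was -0.73 ± 0.212 (SE) with an adjusted p of 0.0683 in limma, so Oamb did not pass the threshold of 0.05. None of the 7 genes passed in that comparison, where 4% of all genes did, and 3 had an unadjusted p under 0.05, against 21.3% of all genes. Oamb was the 1 gene of the 7 whose mutant and WT libraries did not overlap, against 4.31% of all genes. The adjusted p of Oamb was 0.263 without WT library 1, 0.0524 without T1 library 1 and 0.0447 without T1 library 3. It was 0.0370 when all 18 libraries were fitted together, with each mutant form as a group of its own.

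Taken singly, W80R-Q79K was the mutant form in which Oamb fell below WT by the test. The Log2FC was -0.68 ± 0.125 (SE) with an adjusted p of 0.00868 in limma, and 0.00783 without WT library 1. It was 0.0897 in the fit of all 18 libraries, where the groups share 1 estimate of the spread. In T15 the Log2FC had the same size, -0.68 ± 0.135 (SE), with an adjusted p of 0.0916. T15 and WT were the only groups whose same-numbered libraries deviated together across genes, and with the library number as a block Oamb passed at an adjusted p of 0.0437, as it did without WT library 2 (0.0338). Without WT library 1 the Log2FC was -0.55 with an adjusted p of 0.164.

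The duplications T5 and T1 had the widest spread of Oamb among their libraries. T5 differed from WT by a Log2FC of -0.94 ± 0.278 (SE, adjusted p = 0.127), and T1 by -0.61 ± 0.296 (SE, adjusted p = 0.542). Without T5 library 2, the highest of its group, the adjusted p for T5 was 0.0494, and without WT library 1 it was 0.243. The T1 value ran from -0.81 without T1 library 3 to -0.27 without T1 library 2, and was -0.48 without WT library 1 and -0.73 without T1 library 1, with an adjusted p of at least 0.189 in each case. Each mutant form was set against the same 3 WT libraries, so the 4 results are not independent of each other. The 6 direct comparisons between mutant forms had no Oamb difference past the threshold, and their 95% intervals reached -0.97 on the log2 scale, for T5 against T1.

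Against LP, which had no AKT1 transgene, Oamb was lower in T15 by a Log2FC of -0.70 ± 0.151 (SE, adjusted p = 0.0205) and in W80R-Q79K by -0.71 ± 0.143 (SE, adjusted p = 0.00701). Both calls were lost in the fit of all 18 libraries, at adjusted p of 0.117 and 0.103. The T15 call was also lost without LP library 1, LP library 3, T15 library 1 or T15 library 2, at adjusted p of 0.0605 to 0.0721. In limma without the trend it was lost too (adjusted p = 0.0511). T5 differed from LP by -0.97 ± 0.286 (SE, adjusted p = 0.106), and the adjusted p ran from 0.0252, without T5 library 2, to 0.267 with other libraries left out. The comparisons with LP share the LP libraries.

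Octbeta2R, the second octopamine receptor, had its highest level in LP. The libraries had normalized counts of 613, 290 and 340 in LP, 383, 229 and 232 in WT, and 229, 103 and 312 in T1. It was 151, 165 and 173 in T15, 148, 214 and 93.8 in T5, and 189, 165 and 147 in W80R-Q79K. All T15, T5 and W80R-Q79K libraries lay below all WT and LP libraries, while T1 library 3 lay among the LP libraries.

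Octbeta2R was lower than in LP by a Log2FC of -1.26 ± 0.253 (SE, adjusted p = 0.0167) in T15 and of -1.23 ± 0.254 (SE, adjusted p = 0.00743) in W80R-Q79K. The first of these was lost without T15 library 1 (adjusted p = 0.0685) and when all 18 libraries were fitted jointly (adjusted p = 0.0580), and the second was kept in all alternatives tried. In T5 the Log2FC against LP was larger and less certain, -1.44 ± 0.366 (SE, adjusted p = 0.0770). It passed when all 18 libraries were fitted jointly (adjusted p = 0.0425) and without T5 library 2 (0.0223), and its adjusted p reached 0.204 with other libraries left out.

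Against WT, Octbeta2R did not pass in any comparison. The Log2FC was -0.72 ± 0.279 (SE, adjusted p = 0.156) for the 12 mutant libraries, -0.74 ± 0.219 (SE, adjusted p = 0.169) for T15, -0.92 ± 0.342 (SE, adjusted p = 0.196) for T5 and -0.71 ± 0.225 (SE, adjusted p = 0.0611) for W80R-Q79K. WT itself was lower than LP by -0.52 ± 0.317 (SE, adjusted p = 0.473), a difference within the spread of the libraries that ran from -0.76 to -0.20 as libraries were left out 1 at a time. Without WT library 1 the differences from WT were -0.47 for the mutants together (adjusted p = 0.489), -0.50 for T15 (0.227), -0.68 for T5 (0.345) and -0.47 for W80R-Q79K (0.0791). Without T1 library 1 or T1 library 3 the mutants together had an adjusted p of 0.128 and 0.0790. For W80R-Q79K against WT the adjusted p went under 0.05 with quantile normalization (0.0414), with the library number as a block (0.0301) and without WT library 2 (0.0385), and it was 0.198 when all 18 libraries were fitted jointly. Same-numbered libraries of WT and W80R-Q79K did not deviate together across genes (r = 0.041, -0.073 and 0.011), so the block had no basis there.

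The 2 receptor genes varied together from library to library. Pearson's r between them over the 18 libraries was 0.947 and Spearman's rho 0.953, and r was 0.948 without T5 library 3 and LP library 1, the libraries farthest from the median of Oamb. Deviations from the group means had an r of 0.939, so the relation held within groups, and it was 0.930 once the means of the library numbers were also taken out. Among 7725 genes with a mean normalized count of at least 50, each was the gene most like the other. After Octbeta2R, the genes most like Oamb were nahoda (r = 0.924) and CG4853 (r = 0.875), and after Oamb those most like Octbeta2R were Tusp (r = 0.883) and su(w[a]) (r = 0.863).

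The other octopamine and tyramine receptors had low values. Octalpha2R, Octbeta1R, Octbeta3R and Oct-TyrR summed to between 81.1 and 420 normalized counts per library, and Octbeta1R and Oct-TyrR were too low to test. In W80R-Q79K against WT, 1 of the 2 tested was higher, Octbeta3R, at 13.7 to 24.9 normalized counts against 1.96 to 7.13 (Log2FC 1.85 ± 0.506, SE, adjusted p = 0.0386). Of all genes 23.1% passed there, and the WT values of Octbeta3R lay under the filter value of 10. Of 5 genes of Gq and calcium signalling, the route by which Oamb acts, Galphaq, Plc21C, norpA, Itpr and CaMKII, none passed in W80R-Q79K or the pooled mutants against WT. Over all genes 23.1% and 4% passed in these comparisons. Against LP all 5 were lower in T15, where 21.8% of all genes passed, and Galphaq, Itpr and CaMKII were lower in W80R-Q79K, where 31.4% did, and the median Log2FC of the 5 was -0.43 in T15, beside -0.01 over all genes tested.

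sim encodes the transcription factor that returns late in follicle cells to make them competent to ovulate. Its normalized count was 1593, 1125 and 1072 in LP, 1800, 1607 and 973 in WT, and 1958, 1403 and 1215 in T1. It was 876, 870 and 984 in T15, 1823, 1295 and 1025 in T5, and 1457, 1305 and 1250 in W80R-Q79K. T15 was the group with the lowest mean, 910 ± 64.0 (SD, n = 3), and its libraries overlapped with WT only through WT library 3.

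The sim level in T15 differed from that in LP by a Log2FC of -0.45 ± 0.148 (SE, adjusted p = 0.0624) and from that in WT by -0.64 ± 0.217 (SE, adjusted p = 0.209). Against T1 the Log2FC of T15 was -0.72 ± 0.206 (SE, adjusted p = 0.103). None of these passed. Without WT library 3 the T15 difference from WT had an adjusted p of 0.0439, and without T1 library 3 the difference from T1 had one of 0.00936. Without WT library 1 the first was -0.46 (adjusted p = 0.379), and without T1 library 1 the second was -0.52 (adjusted p = 0.361). T5 was above T15 by 0.56 ± 0.206 (SE, adjusted p = 0.194), and W80R-Q79K by 0.55 ± 0.206 (SE, adjusted p = 0.0867).

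Other regulators of the last follicle stages passed the test where sim did not. ftz-f1, the nuclear receptor gene upstream of sim, had normalized counts of 4513, 5318 and 5840 in WT from lowest to highest. It ranged from 1471 to 3426 (median 2378) over the 12 mutant libraries, all below WT, and from 2997 to 3175 in LP. It fell in the mutants by a Log2FC of -1.06 ± 0.190 (SE, adjusted p = 0.00999), the 1 gene to pass of 8 listed for late follicle maturation, where 4% of all genes did.

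In W80R-Q79K against WT, 6 of these 8 genes passed, where 23.1% of all genes did. Lower were ftz-f1 (Log2FC -1.16 ± 0.105, SE, adjusted p = 0.000486), the zinc finger gene ttk (-1.19 ± 0.0673, SE, adjusted p = 0.000112), tgo (-0.56 ± 0.104, SE, adjusted p = 0.00868) and br (-0.78 ± 0.196, SE, adjusted p = 0.0289). The product of tgo is the partner with which Sim binds DNA. Higher were peb, which encodes the zinc finger protein Hindsight (0.41 ± 0.0879, SE, adjusted p = 0.0160), and usp, the partner of the ecdysone receptor (0.29 ± 0.0830, SE, adjusted p = 0.0467). EcR, the ecdysone receptor gene, and shd, whose product makes the active form of ecdysone, did not pass (adjusted p = 0.108 and 0.269). sim averaged 1337 ± 107 (SD, n = 3) in W80R-Q79K and 1460 ± 433 (SD, n = 3) in WT.

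Mmp2 encodes the matrix metalloproteinase that breaks the follicle wall, and its lowest group was T15. Mmp2 was at normalized counts of 1118, 1154 and 1007 in LP, 1527, 1464 and 528 in WT, and 2220, 1448 and 1146 in T1. It was 782, 566 and 545 in T15, 1694, 1039 and 778 in T5, and 1463, 1273 and 934 in W80R-Q79K. All 3 T15 libraries were below all LP, T1 and W80R-Q79K libraries, and WT library 3 was lower than any of them.

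T15 was lower than LP by a Log2FC of -0.81 ± 0.140 (SE, adjusted p = 0.0113). The call was kept when any library was left out and was lost when all 18 libraries were fitted jointly (adjusted p = 0.170). Against T1 the Log2FC of T15 was -1.31 ± 0.307 (SE, adjusted p = 0.0834), with an adjusted p of 0.00440 without T1 library 3, and it was -1.05 with one of 0.291 without T1 library 1. Against WT it was -0.76 ± 0.390 (SE, adjusted p = 0.372), and without WT library 3 it was -1.26 with an adjusted p of 0.0477, but without WT library 1 it was -0.50 with one of 0.614. W80R-Q79K was above T15 by 0.95 ± 0.307 (SE, adjusted p = 0.0597) and T5 by 0.83 ± 0.307 (SE, adjusted p = 0.195).

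Markers of some other cells were also lower in T15, the group with the lowest mean of Mmp2. In T15 against LP, both tested hemocyte genes of a list of 3 were lower, as were 3 of 5 germline genes and 6 of 6 midgut enzyme genes, while none of 3 follicle identity genes passed, beside 21.8% of all genes. The hemocyte genes Hml, NimC1 and Ppn summed to 92.7 to 158 in T15 and 350 to 381 in LP, with 150 to 541 in WT, 167 to 686 in T1, 390 to 578 in T5 and 363 to 462 in W80R-Q79K. Over the 18 libraries Mmp2 had an r of 0.715 with the hemocyte list, 0.762 with the neuron list and 0.876 with the follicle identity list. Its r was -0.09 with the germline list, 0.006 with the midgut list and 0.08 with the muscle list. For sim, r was 0.805 with the neuron list and 0.848 with follicle identity. The genes of the follicle identity list did not change in the same direction in W80R-Q79K. The mean of tj was 18203 in WT and 8956 in W80R-Q79K, whereas Fas3 averaged 3396 and 5701, and eya 3593 and 3911. The 5 germline genes summed to 7950 to 16656 in T15 and 18560 to 23236 in LP. The 5 neuron genes summed to 332 to 599 per library, although Syt1, a synaptic gene of that list, did not exceed 4.27 in any library. The part of these other cells in the levels of Mmp2 and sim was not tested.

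Timp, the gene of the only tissue inhibitor of metalloproteinases in the fly, went lower in W80R-Q79K. Its normalized count was 1626, 1877 and 1750 in LP, 1807, 2335 and 1691 in WT, and 978, 1431 and 1708 in T1. It was 1747, 1815 and 1604 in T15, 1230, 1809 and 1317 in T5, and 1149, 1231 and 1271 in W80R-Q79K. All W80R-Q79K libraries were below all LP, WT and T15 libraries, and T1 and T5 were split, with T1 library 3 and T5 library 2 at the level of WT.

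W80R-Q79K was lower in Timp than WT by a Log2FC of -0.66 ± 0.129 (SE, adjusted p = 0.0107) and than LP by -0.52 ± 0.0719 (SE, adjusted p = 0.00101). The first was lost without W80R-Q79K library 1 (adjusted p = 0.0556), stood at 0.0247 without WT library 1, and the second was lost when all 18 libraries were fitted jointly (adjusted p = 0.0686) and fell short of the fold threshold that the study used. Against T15 the Log2FC was -0.50 ± 0.190 (SE, adjusted p = 0.0916), and the 12 mutant libraries differed from WT by -0.44 ± 0.173 (SE, adjusted p = 0.156). The latter adjusted p was 0.270 without WT library 1, 0.145 without T1 library 1 and 0.136 without T1 library 3. Timp overlaps Syn, a gene of the opposite strand with which it shares 249 exon bases, and Syn was listed at only 31.2 to 90.1 normalized counts.

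Timp followed the eggshell genes, which follicle cells switch on stage by stage. Over the 18 libraries its r with the mean log2 level of the 4 late chorion genes Cp15, Cp16, Cp18 and Cp19 was 0.904, and it was 0.905 without T1 library 1 and T5 library 3. Within groups r was 0.861. With the 5 early chorion genes r was 0.917, and with the 6 vitelline membrane genes 0.826. Sod3 had an r of 0.413 with the late and 0.364 with the early chorion genes over the 18 libraries, and 0.772 and 0.850 within groups. Between Timp and Sod3 r was 0.234, and 0.700 within groups. The summed late chorion level was 13286 and 65952 in T1 libraries 1 and 2 but 160082 in library 3, and 53852 and 52156 in T5 libraries 1 and 3 but 127188 in library 2, the same split as that of Timp.

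In W80R-Q79K the late chorion sum was 73880 to 81693, in WT 133134 to 208069, in LP 106088 to 144021 and in T15 132755 to 164690. All 4 late chorion, 5 of 5 early chorion and 6 of 6 vitelline membrane genes were lower in W80R-Q79K than in WT, where 23.1% of all genes passed. Against LP, W80R-Q79K was lower in 4 of 4 late chorion, 5 of 5 early chorion and 1 of 6 vitelline membrane genes, beside 31.4% of all genes. T15 was higher than LP in 4 of 5 early chorion and 5 of 6 vitelline membrane genes, and 0 of 4 late chorion genes passed. Of all genes 21.8% passed in T15 against LP. None of the late chorion genes was at 0 in any library. The part of the mix of follicle stages in the levels of Timp, Sod3 and the other genes was not tested. In the plot of gene pairs the W80R-Q79K libraries lie at the low end for both Timp and the late chorion genes.

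**Figure D2:**
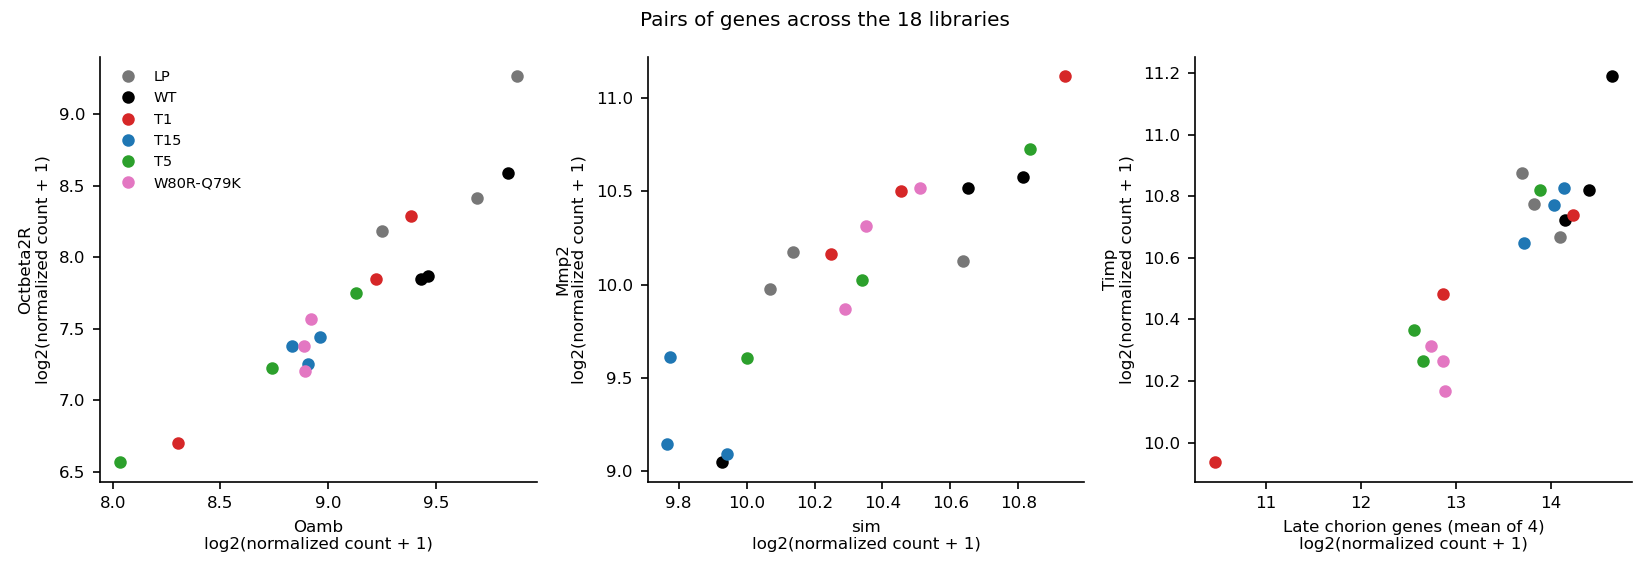
Each point is 1 of the 18 libraries, colored by group, and both axes of each panel are log2(normalized count + 1). Octbeta2R against Oamb (left) gave r = 0.947, Mmp2 against sim (middle) r = 0.894, and Timp against the mean of 4 late chorion genes (right) r = 0.904, with T1 library 1 as the lowest point of the right panel.

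Mmp1, the other matrix metalloproteinase gene of the fly, was highest in W80R-Q79K. Its libraries lay at 380 to 568 in W80R-Q79K, 125 to 284 in WT, 139 to 192 in LP, 253 to 499 in T1, 144 to 204 in T15 and 263 to 452 in T5. It was higher in W80R-Q79K than in WT by a Log2FC of 1.20 ± 0.308 (SE, adjusted p = 0.0307), whereas the mean of Mmp2 was 1223 ± 268 (SD, n = 3) in W80R-Q79K and 1173 ± 559 (SD, n = 3) in WT. The difference between the 2 genes was not tested.

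Nox, the NADPH oxidase that supplies superoxide for follicle rupture, was highest in W80R-Q79K. Normalized counts of Nox were 1819, 1602 and 1705 in LP, 2007, 1911 and 1174 in WT, and 3353, 2241 and 2481 in T1. It was 1834, 1196 and 1489 in T15, 3361, 2351 and 1626 in T5, and 3695, 3343 and 3046 in W80R-Q79K. The T1 libraries also lay above all LP, WT and T15 libraries, while T5 library 3 fell among them.

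W80R-Q79K was higher in Nox than WT by a Log2FC of 1.02 ± 0.204 (SE, adjusted p = 0.0118) and than LP by 0.97 ± 0.0833 (SE, adjusted p = 9.21e-05). The difference from WT was lost without W80R-Q79K library 1 (adjusted p = 0.0555) and held without WT library 1 (0.0171), and that from LP was kept in all alternatives tried. In T1 the Log2FC was 0.68 ± 0.252 (SE, adjusted p = 0.412) against WT and 0.64 ± 0.166 (SE, adjusted p = 0.147) against LP, the latter with an adjusted p of 0.0496 without T1 library 3. Without T1 library 1, the highest of its group, these were 0.51 (adjusted p = 0.999) and 0.47 (adjusted p = 0.220). Without WT library 1 or T1 library 3 the difference of T1 from WT had an adjusted p of 0.754 and 0.223. The pooled mutants differed from WT by 0.51 ± 0.308 (SE, adjusted p = 0.350), and by an adjusted p of 0.396 without WT library 1, 0.387 without T1 library 1 and 0.375 without T1 library 3.

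Of the pairs of mutant forms, only W80R-Q79K against T15 had a Nox difference past the threshold. W80R-Q79K exceeded T15 by a Log2FC of 1.18 ± 0.248 (SE, adjusted p = 0.0203) in the fit of the 12 mutant libraries. Nox was the 1 member of 7 (14.3%) to pass there, where 13.3% of all genes did. The call was lost without T15 library 2 or any of the 3 W80R-Q79K libraries, at adjusted p of 0.0697 to 0.0960. T15 differed from T1 by -0.84 ± 0.248 (SE, adjusted p = 0.105), with an adjusted p of 0.376 without T1 library 1 and 0.0308 without T1 library 3, and T5 above T15 by 0.66 ± 0.248 (SE, adjusted p = 0.202). With the 6 groups tested at once Nox was again the 1 of 7 to pass (F = 6.87, adjusted p = 0.0154), where 21.3% of all genes did, and its adjusted p was 0.0511 without W80R-Q79K library 1, 0.0173 without WT library 1, 0.0161 without T1 library 1 and 0.00940 without T1 library 3.

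Nox shares 173 exon bases with CG8060 on the opposite strand, and how the counting used strand is not given in the sources used here. CG8060 was at 415 to 637 normalized counts, and its mean was lower in W80R-Q79K (496) than in WT (588), the opposite of Nox. Across libraries the gene most like Nox was CG8399 (r = 0.966), followed by trio (r = 0.953) and CG32816 (r = 0.938), and 21 of the 7725 genes had an r above 0.9 with it. Mmp1 had an r of 0.921 with Nox, and 0.889 without W80R-Q79K library 1 and WT library 3.

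Sod3, which makes hydrogen peroxide from the superoxide of Nox, was lowest in LP. Its normalized count was 7219, 6481 and 7381 in LP, 11694, 10693 and 8618 in WT, and 7060, 8309 and 10413 in T1. It was 10131, 9762 and 8706 in T15, 7536, 9723 and 6279 in T5, and 10708, 10760 and 9827 in W80R-Q79K. All WT, T15 and W80R-Q79K libraries stood above all LP libraries, and T1 and T5 overlapped with LP.

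Sod3 was higher than in LP by a Log2FC of 0.57 ± 0.0736 (SE, adjusted p = 0.000725) in W80R-Q79K, a call kept in all alternatives but the fold threshold that the study used, and of 0.44 ± 0.0862 (SE, adjusted p = 0.0159) in T15. The T15 call fell short of that fold threshold too, and was lost when all 18 libraries were fitted jointly (adjusted p = 0.102) and without LP library 1, T15 library 1 or T15 library 2 (0.0545 to 0.0691). WT was higher than LP by 0.55 ± 0.135 (SE), about as much as W80R-Q79K, but with a wider spread and an adjusted p of 0.137, or 0.45 with one of 0.296 without WT library 1. Sod3 was the 1 gene of the 7 with an unadjusted p under 0.05 in WT against LP, against 15.5% of all genes. Between WT and W80R-Q79K the means were 10335 ± 1569 and 10432 ± 524 (SD, n = 3), and W80R-Q79K exceeded T5 by 0.43 ± 0.167 (SE, adjusted p = 0.453).

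Among the other enzymes of superoxide and hydrogen peroxide, Cat, Duox, Sod1 and Sod2, none passed in W80R-Q79K or in the pooled mutants against WT. There 23.1% and 4% of all genes passed. Against LP, Sod1 and Sod2 were higher in W80R-Q79K by a Log2FC of 0.23 and 0.22 (adjusted p = 0.0245 and 0.0152), where 31.4% of all genes passed. Sod2 was higher by 0.37 (adjusted p = 0.00928) and Duox lower by -0.94 (adjusted p = 0.0251) in T15, where 21.8% did, and Duox was lower by -0.93 (adjusted p = 0.0472) in T1, where 0.998% did. Catalase, which removes hydrogen peroxide, was at 3423 to 4178 normalized counts in W80R-Q79K and 3367 to 3866 in WT. Duox, the other enzyme of the oxidase family, was at 906 to 985 in W80R-Q79K and 474 to 1191 in WT. Nox and Sod3 had an r of 0.210 over the 18 libraries.

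Counted over the 7 genes, W80R-Q79K had the most calls against the references. Calls depend on the spread among libraries as well as on the size of a difference. Against WT, Oamb fell further in T5 (Log2FC -0.94) than in W80R-Q79K (-0.68), but its SD was 150 in T5 and 6.11 in W80R-Q79K. Against LP 5 passed, Oamb, Octbeta2R and Timp lower and Nox and Sod3 higher, where 31.4% of all genes passed. Against WT 3 passed, Oamb and Timp lower and Nox higher, where 23.1% of all genes passed. T15 against LP had 4, Oamb, Octbeta2R and Mmp2 lower and Sod3 higher, where 21.8% of all genes passed. The fit of all 18 libraries gave 3 for W80R-Q79K against LP and 0 for T15 against LP.

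Cell markers differed between the same groups. In W80R-Q79K against LP, 6 of 6 midgut enzyme genes and 5 of 7 muscle genes were lower and 1 muscle gene was higher, where 31.4% of all genes passed. The midgut genes summed to 1.58 to 5.13 in W80R-Q79K, with alphaTry, betaTry and Jon65Aiv at 0 in all 3 libraries, and to 1013 to 3176 in LP. The muscle genes summed to 2643 to 3051 in W80R-Q79K and 2794 to 3366 in LP. Of the 3 follicle identity genes 1 was lower and 1 higher in W80R-Q79K than in WT, where 23.1% of all genes passed. The level of tj, the gene whose promoter drives the transgenes, was 8521 to 9475 in W80R-Q79K and 17608 to 19058 in WT. The part of these differences in the levels of the 7 genes was not tested.

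Apart from W80R-Q79K against LP and WT, T15 against LP, and Nox in W80R-Q79K against T15 and in the test of 6 groups, none of the 7 passed in limma in any comparison. In WT against LP 0.419% of all genes passed, and Sod3 alone of the 7 had an unadjusted p under 0.05. In T1 against WT 0% of all genes passed, with 1 of the 7 and 10.5% of all genes under an unadjusted p of 0.05. In T15 against WT these were 0.315% passed, and 3 of the 7 with 17% of all genes unadjusted, and in T5 against WT 0.725% passed, and 2 of the 7 with 20.3% of all genes unadjusted. The direction of the 7 genes in the duplications can be read from the plot of Log2FC, but few genes of any kind stood past the threshold there.

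Against LP, T1 had 0.998% of all genes past the threshold, and 1 of the 7 with 16.2% of all genes under an unadjusted p of 0.05. T5 against LP had 3.76% past it, and 2 of the 7 with 24.1% of all genes unadjusted. Among the pairs of mutant forms, T15 against T1 had 0.33% of all genes past the threshold, and 3 of the 7 with 28.7% of all genes unadjusted. These 3 were Mmp2, Nox and sim, all lower in T15. T5 against T1 had 0.266% past it, and none of the 7 with 9.95% of all genes unadjusted, and W80R-Q79K against T1 had 0.915%, and none of the 7 with 12.6%. T5 against T15 had 0.0639%, and 3 of the 7 with 20.3%, and W80R-Q79K against T5 had 0.575%, and 1 of the 7 with 8.9%. The 3 genes in T5 against T15 were again Mmp2, Nox and sim, higher in T5, from a fit that shares the T15 libraries.

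**Figure D3:**
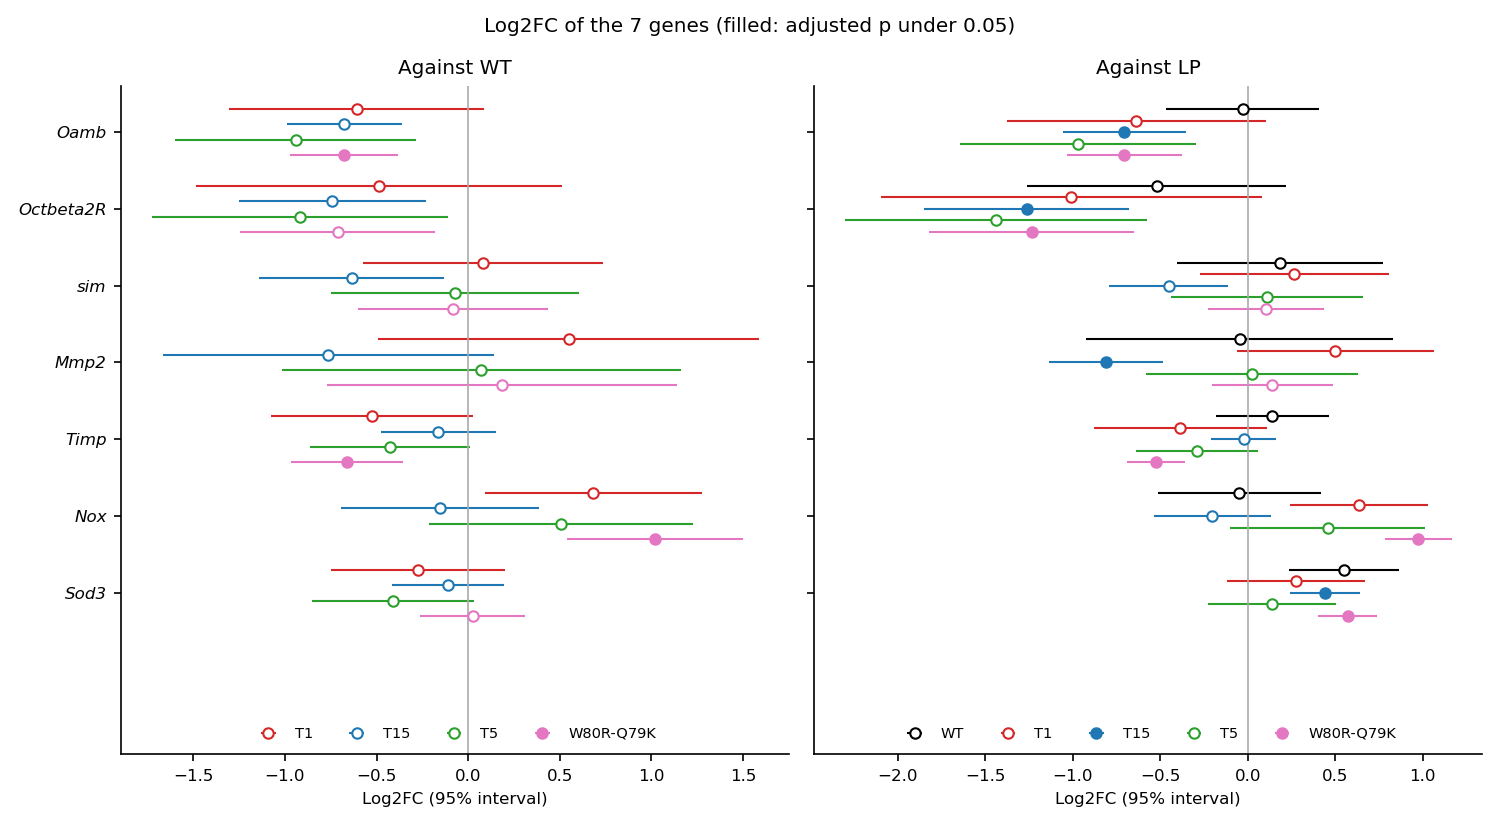
Log2FC of each gene (rows) against WT (left) and against LP (right), on the scale of log2(normalized count + 1). Points are estimates, bars their 95% intervals, colors the group compared, and filled points an adjusted p under 0.05 in limma. Against WT the filled points are Oamb, Timp and Nox in W80R-Q79K, and against LP they are 4 genes in T15 and 5 in W80R-Q79K.

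Beyond the pair of receptors, Mmp2, sim and Nox formed a group that varied together. Mmp2 and sim had an r of 0.894, and 0.845 without T1 library 1 and T15 library 2. Mmp2 and Nox had an r of 0.757 and Nox and sim one of 0.663, and within groups these were 0.892 and 0.838. The r of Oamb and Octbeta2R with these 3 genes lay between -0.15 and 0.28. Within groups it was 0.520 for Oamb and 0.436 for Octbeta2R with Nox, 0.390 and 0.419 with sim, and 0.229 and 0.211 with Mmp2. Timp ran against Nox with an r of -0.68, which was -0.20 within groups.

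The number of the library went with that variation. Library 1 had the highest Nox level in 6 of 6 groups and the highest Mmp2 and sim levels in 5 of 6, and library 3 had the lowest Mmp2 level in 6 groups and the lowest sim level in 5. Over all genes the median was 2 groups, and 5.21% of genes had library 1 highest in at least 5 groups. The sources used here do not say what the numbers stand for. Once the means of the groups and of the numbers were taken out, the r of Mmp2 with sim was 0.652. That of Mmp2 with Nox was then 0.834 and that of Nox with sim 0.625.

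By likeness over the 18 libraries, the genes nearest to Mmp2 were srp (r = 0.914), CG42788 (r = 0.912) and CG9932 (r = 0.90). Nearest to sim were Sarm (r = 0.921), srp (r = 0.908) and CG42788 (r = 0.902), so 2 of the 3 were shared with Mmp2. Timp had 53 genes with an r above 0.9, the most of the 7, led by lncRNA:CR44707 (r = 0.958), hpRNA:CR18854 (r = 0.951) and CG14834 (r = 0.951). Sod3 had none, and its nearest genes were CG14196 (r = 0.817), CkIIalpha-i3 (r = 0.808) and CG11168 (r = 0.806). All these correlations are over libraries that share groups and preparations, and they are given as descriptions.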

How the data were processed

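The deposited signal values are normalized counts: the authors estimated counts per gene with RSEM 1.3.1 and scaled them with DESeq2. bcl2fastq 2.18.0.12 and Bowtie are also named in the submitters' processing notes. The sources used here do not give the Bowtie version, the genome build or the strand setting of the counting, so no coordinates are printed. Whole reads could not be recovered from the values, so no test on counts was run. A symbol was found in the reference annotation for 17372 of the 17493 genes, and 2607 genes were 0 in all libraries. The record of W80R-Q79K names 2 of its 3 columns. The third carries the same line name and was taken as its library.

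Log2(value + 1) was compared between groups with limma 3.58.1 (R 4.3.3, lmFit, then eBayes with a trend). Genes entered with 10 or more in 3 or more of the libraries compared. Benjamini-Hochberg adjustment was over all genes of a fit, and a gene passed at an adjusted p under 0.05. Comparisons with WT or LP used their own libraries only, pairs of mutant forms the 12 mutant libraries, and the F test all 18. The p values measure the spread between libraries of separate crosses. In the mutants against WT the 12 mutant libraries were merged into a single group. The spread there also holds differences between the mutant forms. The 7 genes, the lists and the naming rule were chosen with earlier results of these data known. The rule names the 7 genes, regulators, enzymes and overlapping genes listed with them, and the 3 genes most like each by Pearson's r among genes averaging 50 or more. Genes singled out from a count of 5 or fewer (Octbeta3R, br, usp, tj, CG8060) were named after their values were seen. So were Galphaq, Itpr, CaMKII, Sod1, Sod2, Syt1, alphaTry, betaTry and Jon65Aiv where they are singled out. Correlations are on log2(value + 1), without tests.

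Same-numbered libraries deviated together only for WT and T15, among 15 pairs of groups (r = 0.260, 0.281 and 0.224), so the blocked value is given for T15 against WT. Blocked values of other comparisons are alternatives in which the libraries share only a number. Alternatives were other pseudocounts, filters and scalings, no trend, a fold threshold, a joint fit of all 18 libraries, a block for the library number, and the omission of each library or mutant form. The germline marker nos was not analysed here. Plots used matplotlib 3.10.9 (Python 3.11.15).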

Additional observations from a re-analysis of the deposited data

Results flagged for a closer look

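Nox, the superoxide-producing oxidase, differed between 2 mutant forms by a direct test. W80R-Q79K exceeded T15 by a Log2FC of 1.18 (adjusted p = 0.0203, limma), in a comparison where 13.3% of all genes passed. The call was lost without T15 library 2 or W80R-Q79K library 1, 2 or 3. The adjusted p ran from 0.00568 to 0.0960 over the alternatives tried.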

How the results depend on the processing

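Across 49 values of the 7 genes and 864 alternative settings of them, 797 stayed on the same side of the threshold, 23 lost it and 44 gained it. No Log2FC among them reversed its direction, and the F values of the test of 6 groups have no direction to reverse. Not every comparison of every gene was among the 49. Pseudocount, filter and TMM changed no count of the 7 genes by more than 1.5 times. The fit of all 18 libraries gave 1 gene for the mutants against WT, 1 for T5 against WT, 0 for T15 against LP, 1 for T5 against LP and 3 for W80R-Q79K against LP. Asking for the fold threshold of the study as well left 3 for W80R-Q79K against LP. Leaving out the T1 form gave 2 for the mutants against WT, and quantile normalization gave 2 in the test of 6 groups.

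With a replicate block on the library number the count was 1 for T15 against WT, 2 for T15 against T1, 1 for T5 against T15, 2 for W80R-Q79K against T15 and 4 in the test of 6 groups, where Mmp2, Timp, Nox and sim passed. Apart from WT with T15 these libraries share only a number.

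With each library left out in turn, the count ran from 0 to 5 in the test of 6 groups, 0 to 1 for the mutants against WT, 0 to 2 for T15 against WT, 0 to 1 for T5 against WT and 1 to 4 for W80R-Q79K against WT. Against LP it ran from 0 to 1 for T1, 1 to 4 for T15, 0 to 3 for T5 and 5 to 6 for W80R-Q79K. It ran from 0 to 4 for T15 against T1 and from 0 to 1 for W80R-Q79K against T15. A median shift of all genes under another scaling reached at most -0.06 on the log2 scale. Read depth is unknown, and 3 libraries per group limit all tests.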
